A study of Rattus norvegicus with 12 samples.

Results

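The genes of glycolysis, glucose and lactate transport, glycogen turnover, oxygen sensing and the response to low oxygen were examined in 12 RNA-seq libraries of primary cortical neuroglial cultures of the Wistar rat. The set was fixed by name, with 38 gene symbols, and 37 of them were found among the 28111 gene names in the libraries. Egln1, a prolyl hydroxylase that marks HIF for degradation, was not found under that name and was not analysed here. The members comprise 17 glycolytic enzymes, 4 transporters of glucose and lactate, 2 regulators of flux (Pfkfb3 and Pdk1), 3 glycogen genes, 3 genes of oxygen sensing and 9 further hypoxia targets.

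All cultures were prepared from the cortex of newborn pups (postnatal day 0 in the labels) and were used at 10 days in vitro, with RNA collected 4 h after the additions. The intact control (IC) received nothing. The EV group received EV-GPCs, extracellular vesicles secreted by glial progenitor cells made from human induced pluripotent stem cells, at 10 µg/mL. A further group received proteins of 3–100 kDa from the same source at 15 µg/mL, and the last received the total secretome at 45 µg/mL. Each group had 3 libraries. According to the methods, every culture, controls included, had been given cytosine arabinoside early in culture to hold back the growth of glia, which limits them as a model of the glial part of cortex. The methods state in general that experiments were repeated on unrelated cultures, and a covariate for day is named for the IC and EV libraries. The sources do not say which culture or day each library came from, so a day effect could not be fitted, and p-values measure only the spread between these libraries, which may be technical.

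In glycolysis, hexokinase phosphorylates glucose once it has entered the cell through a facilitative transporter, phosphofructokinase commits it to the pathway, and pyruvate kinase yields pyruvate, which lactate dehydrogenase can reduce to lactate. In brain, astrocytes and neurons divide this work between them, and lactate can pass from cell to cell through monocarboxylate transporters. HIF-1 is a transcription factor whose α subunit, the product of Hif1a, is hydroxylated and degraded when oxygen is present. In low oxygen, or under some growth factor and inflammatory signals, it accumulates and binds the hypoxia response element, whose core is ACGTG or GCGTG, before genes for glycolytic enzymes, glucose transporters and many others. Hif1a is controlled largely at the protein level, which RNA does not show.

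Start-site sequences of 35 of the 38 members were available from RefSeq (assembly GRCr8, a later build than the Rnor_6.0 transcripts behind the expression values). Pgk1, Slc2a3 and Bnip3l were not matched. The core was searched as ACGTG and GCGTG on both strands in the 250 bases before each start site, so that CACGTG counts on each strand. At least 1 core lay in 27 of the 35 members (77.1%, with the best window where a gene has several), against 39.6% of all 27457 genes counted in the same way. It lay in 3 of the 5 members that rose with the 3–100 kDa proteins (described below) and in all 3 that fell. The windows of 5 of these 8 are shown because they span the range of this feature, from no core to 7. Every sequence is written 5′ to 3′ on the strand of the gene and ends at the base before the start site, with the matches in capitals. They belong to Pfkfb3 (chr17:71944683-71944932, plus strand), Ak4 (chr5:121154886-121155135, plus strand), Ddit4 (chr20:28437038-28437287, minus strand), Ppp1r3c (chr1:243878528-243878777, minus strand) and Adm (chr1:174179950-174180199, plus strand).
Pfkfb3: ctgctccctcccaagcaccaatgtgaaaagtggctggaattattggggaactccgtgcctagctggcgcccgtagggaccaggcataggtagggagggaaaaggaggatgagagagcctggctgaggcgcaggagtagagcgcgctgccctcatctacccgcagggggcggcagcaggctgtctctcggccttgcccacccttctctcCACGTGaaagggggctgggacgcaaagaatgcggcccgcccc
Ak4: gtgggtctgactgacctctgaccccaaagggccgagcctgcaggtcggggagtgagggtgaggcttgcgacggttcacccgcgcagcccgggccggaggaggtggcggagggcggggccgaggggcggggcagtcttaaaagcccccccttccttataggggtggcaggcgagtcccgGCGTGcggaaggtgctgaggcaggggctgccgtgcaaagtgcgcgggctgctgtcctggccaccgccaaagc
Ddit4: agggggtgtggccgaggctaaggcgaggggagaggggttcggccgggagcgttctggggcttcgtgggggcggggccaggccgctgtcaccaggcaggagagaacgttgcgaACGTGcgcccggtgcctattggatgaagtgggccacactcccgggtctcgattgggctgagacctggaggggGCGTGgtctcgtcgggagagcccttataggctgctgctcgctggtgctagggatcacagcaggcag
Ppp1r3c: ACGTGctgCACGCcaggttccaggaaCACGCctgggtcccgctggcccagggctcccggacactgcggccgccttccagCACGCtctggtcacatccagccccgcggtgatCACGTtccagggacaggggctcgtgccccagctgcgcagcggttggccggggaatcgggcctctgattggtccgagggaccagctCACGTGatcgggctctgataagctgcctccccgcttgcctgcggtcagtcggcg
Adm: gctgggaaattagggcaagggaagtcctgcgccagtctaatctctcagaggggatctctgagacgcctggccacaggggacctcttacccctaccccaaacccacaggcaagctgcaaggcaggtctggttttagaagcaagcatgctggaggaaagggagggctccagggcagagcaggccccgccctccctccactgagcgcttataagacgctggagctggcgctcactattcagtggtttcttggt

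Pfkfb3 had 1 palindromic CACGTG close to its start site, counted as 2 cores. Ak4 had a single GCGTG, and Ddit4 had 1 core of each form. Ppp1r3c had 7 cores, the most of any member, and Adm had none in this window. Hk2 and Vegfa also had none, P4ha1 had 2 and Mxi1 had 1. Ldha, Slc2a1, Bnip3 and Ankrd37 had 4 each. A match is a run of letters and no evidence of binding, and its absence says only that these letters were not in this window.

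**Figure D1:**
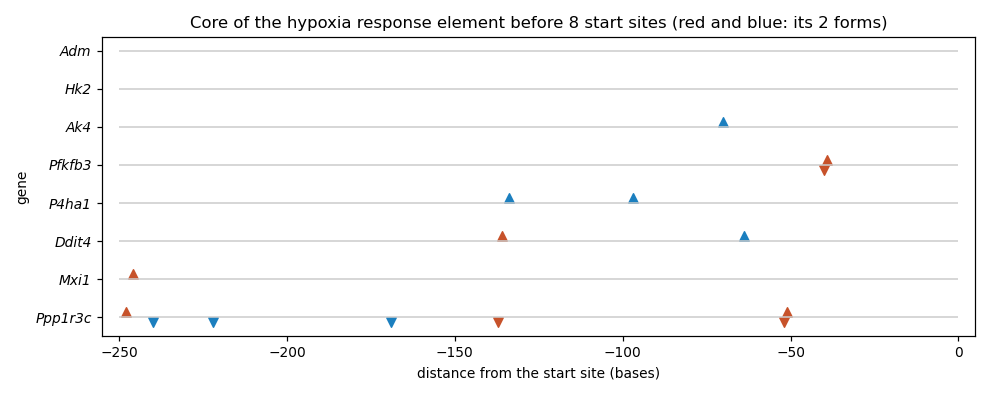
Positions of the core of the hypoxia response element in the 250 bases before the start sites of the 8 members that passed an FDR of 0.05 against IC; the horizontal axis gives the distance from the start site in bases, red marks ACGTG and blue GCGTG, and triangles point up for the strand of the gene and down for the opposite strand. Ppp1r3c holds 7 matches spread over the window, while Adm and Hk2 hold none.

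The expression values were TPM, a unit corrected for transcript length. It carries no sequencing depth, which is unknown for these libraries. All levels given below are deposited TPM. Fold changes were computed on log2(TPM + 1) after median-of-ratios scaling with limma, and they understate the change of genes near 1 TPM. A member passed the test at an FDR under 0.05 (Benjamini-Hochberg over all genes tested). The looser criterion, also stated for this study, was a fold change over 1.5 at an unadjusted p under 0.05. Of the 37 members found, 36 reached 1 TPM in at least 3 libraries and were tested in each comparison. The lactate exporter Slc16a3 did not. It was at 0.399 TPM in IC library 1 and listed at 0 in the other two, and its highest value in any library was 0.854 TPM.

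The labelled culture was checked against cell type markers. The 10 neuronal markers summed to 3143–4052 TPM and the 8 astrocyte markers to 833–1572 TPM over the 12 libraries, while oligodendrocyte lineage markers summed to 124–265 TPM. Markers of microglia (0.190–2.20 TPM summed) and of endothelium (0.0751–0.758 TPM) were near 0, and none of them reached the level needed for testing. Among astrocyte markers, the IC libraries had Gfap at 85.1, 361 and 128 TPM and the EV libraries at 491, 617 and 362 TPM. The other astrocyte markers differed less from IC in EV, as given below. In bulk RNA, fewer cells of a type and less RNA per cell cannot be told apart.

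In IC the glycolytic enzymes were the most abundant members. Gapdh led with 1422, 1827 and 1304 TPM in libraries 1 to 3 (1518 ± 274, SD, n = 3), followed by Eno1 (606 ± 116 TPM) and Aldoa (543 ± 107 TPM). The ranges of these 2 overlapped, although Eno1 was above Aldoa in each of the 3 libraries. Pkm, Ldha, Tpi1, Aldoc, Ldhb, Pgk1 and Hk1 came next, between 237 and 412 TPM, with neighbouring levels that overlapped. At the other end, Hk2, the inducible hexokinase, was at 2.08 ± 0.176 TPM, Ankrd37 at 1.42 ± 0.327 TPM and the vasodilator peptide gene Adm at 0.569 ± 0.328 TPM. Among the transporters the neuronal glucose transporter Slc2a3 was the highest (39.7 ± 5.11 TPM), above the widely expressed glucose transporter Slc2a1 (12.4 ± 2.59 TPM). Bnip3l, a mitophagy receptor, was the highest hypoxia target (91.6 ± 10.8 TPM), and Pygb, the brain form of glycogen phosphorylase, the highest glycogen gene (50.7 ± 2.98 TPM).

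With the proteins of 3–100 kDa, 8 of the 36 members tested passed an FDR of 0.05 against IC, beside 3.31% of all 12788 genes tested, with 5 higher (2.82% of all genes) and 3 lower (0.485%). The same 8 met the looser criterion, against 10.0% of all genes. Adm, Hk2, Ak4, Pfkfb3 and P4ha1 rose, and Ddit4, Ppp1r3c and Mxi1 fell. By role, 1 of 17 glycolytic enzymes, none of the 3 transporters tested, 1 of 2 flux regulators, 1 of 3 glycogen genes, neither of the oxygen sensing genes tested and 5 of 9 hypoxia targets (4 of 8 without Adm, which was tested only through the treated group) passed, and the roles were not tested against each other. In 13 of the 36 members the 3 treated libraries lay wholly above (7) or below (6) the 3 IC libraries, against 10.7% and 9.88% of all genes (20.6% in either direction). Without Adm, 7 of 35 members passed an FDR of 0.05 and 12 did not overlap with IC, 6 above and 6 below.

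The total secretome, given at a higher dose, was compared with the same IC libraries, so the values of the treatments against IC are not independent of each other. Here 5 of 36 members passed an FDR of 0.05, against 1.97% of all 12787 genes tested. Ak4, Pfkfb3, Adm and Hk2 rose (4 members, against 1.68% of all genes), and Ddit4 fell (1, against 0.289%). By the looser criterion there were 6, against 8.09% of all genes, the addition being Mxi1. In 10 members the libraries did not overlap with IC, 6 above and 4 below, against 11.4% and 8.86% of all genes (20.2% in either direction). Adm was again tested only through the treated group. Without it, 4 of 35 members passed an FDR of 0.05, 5 met the looser criterion and 9 did not overlap with IC, 5 above and 4 below.

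After EV-GPCs, no member passed an FDR of 0.05 in limma, against 0.141% of all 12749 genes tested. At an unadjusted p under 0.05 there were 6 of 36 members and 360 of all genes. The looser criterion was met by Pfkfb3, Adm and Ddit4, 3 of 36, against 2.16% of all genes, and by 2 of 35 without Adm, which was under 1 TPM in every IC library and so was tested only through EV. The libraries of 5 members did not overlap with IC, 3 above (Pfkfb3, Adm and Hk2, or 2 without Adm) and 2 below (Ppp1r3c and Mxi1), against 3.22% and 1.88% of all genes (5.10% in either direction). The number by the looser criterion was 5 without EV library 1, with Hk2, Aldoc and Eno2 added and Adm no longer tested, and 1 (Pfkfb3) without EV library 3.

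**Figure D2:**
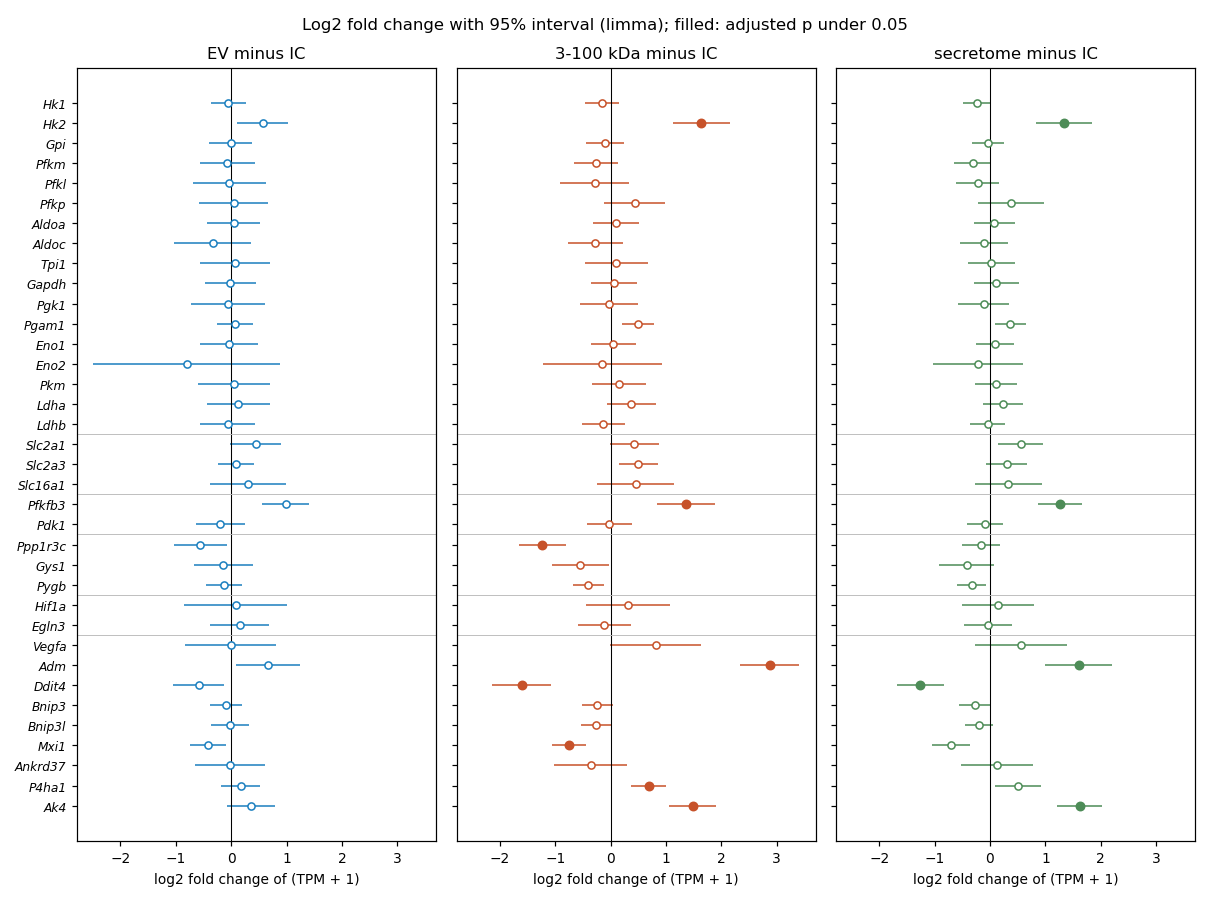
Log2 fold change of each of the 36 members tested, with its 95% interval from limma, for EV, 3–100 kDa proteins and total secretome, each minus IC; the horizontal axis is on the log2(TPM + 1) scale, grey lines separate the roles and filled points have an adjusted p under 0.05. Filled points number 0, 8 and 5 in the 3 panels, and most enzymes lie near 0 in each.

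The calls rested on small groups. Without a single library, the number of members that passed an FDR of 0.05 for the 3–100 kDa proteins was 2 without IC library 1, 5 without IC library 3, 5 without 3–100 kDa library 1, 1 without library 2 (Ddit4) and 1 without library 3 (Ak4). For the total secretome the number was 2 without IC library 1, 8 without IC library 2 (Pgam1, Slc2a1 and Mxi1 being added), 3 without IC library 3, 0 without secretome library 2 and 1 without secretome library 3 (Ak4). When a 3–100 kDa or secretome library was left out, Adm no longer reached the level needed for testing against IC.

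Hk2, the hexokinase isoform that HIF and growth factor signals are known to induce, was the only glycolytic enzyme that passed the test in the fits of 6 libraries. Its level was 2.27, 1.92 and 2.05 TPM in the IC libraries, 3.23, 3.86 and 3.70 TPM in the EV libraries, 6.62, 9.29 and 9.60 TPM with the 3–100 kDa proteins and 5.37, 7.97 and 6.86 TPM with the total secretome. All 9 treated libraries were above every IC library. Hk2 rose by 1.63 on the log2 scale (SE 0.22, adjusted p = 0.0102) with the 3–100 kDa proteins and by 1.33 (SE 0.22, adjusted p = 0.0273) with the total secretome, in the limma fits. The mean TPM ratios to IC were 4.08 and 3.23. For EV the difference was 0.57 (SE 0.20, adjusted p = 0.9998). Hk1, the constitutive isoform of brain, was at 237 ± 17.3 TPM in IC against 200–230 TPM in the treated group means, and it passed no test. Hk2 was a small part of hexokinase RNA throughout, and its share of Hk1 plus Hk2 was 0.875% ± 0.0977 in IC, 1.55% ± 0.222 in EV, 4.02% ± 1.23 with the 3–100 kDa proteins and 3.33% ± 0.909 with the total secretome (SD, n = 3).

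The other 16 enzymes showed no difference from IC that passed the test in any of the 3 comparisons. The median log2 difference of all 17 was -0.01 for EV, 0.05 for the 3–100 kDa proteins and 0.02 for the total secretome, beside -0.01, -0.02 and -0.01 over all genes tested. With 1 library left out at a time, these medians ranged from -0.19 to 0.09, from -0.10 to 0.19 and from -0.10 to 0.15, in this order. Together the 17 enzymes made up 0.562% ± 0.105 of the TPM of a library in IC, 0.559% ± 0.107 in EV, 0.572% ± 0.0820 with the 3–100 kDa proteins and 0.573% ± 0.0713 with the total secretome. Pgam1, phosphoglycerate mutase, came nearest to the threshold after Hk2. It was at 183, 210 and 175 TPM in IC, at 264, 272 and 245 TPM with the 3–100 kDa proteins and at 249, 247 and 228 TPM with the total secretome. Neither treated group overlapped with IC, with differences of 0.49 (SE 0.12, adjusted p = 0.0876) and 0.37 (SE 0.12, adjusted p = 0.177). Gapdh, often used as a reference gene, differed from IC by between -0.01 and 0.11 on the log2 scale, with 95% intervals that reached from -0.47 to 0.52.

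Lactate dehydrogenase is a tetramer of A and B chains, of which the A chain, encoded by Ldha, is the HIF target. The share of Ldha in Ldha plus Ldhb was 58.1%, 56.1% and 56.95% in the IC libraries. It was 62.4%, 59.6% and 58.8% in the EV libraries, 69.0%, 66.5% and 60.7% with the 3–100 kDa proteins and 65.2%, 62.4% and 57.8% with the total secretome. The EV and 3–100 kDa libraries were all above IC, and the secretome libraries overlapped with it. Groups of 3 cannot give an exact permutation p under 0.1, so these shares are a description. Neither gene passed the test by itself, with Ldha at 0.38 (SE 0.19, adjusted p = 0.372) for the 3–100 kDa proteins.

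**Figure D3:**
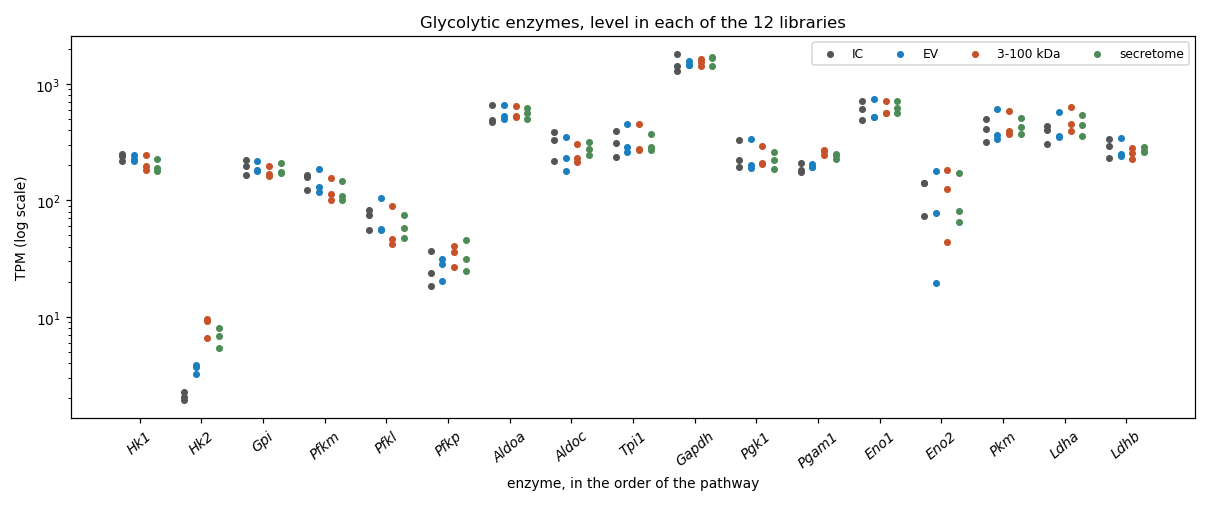
TPM of the 17 glycolytic enzymes in each of the 12 libraries, in the order of the pathway, on a log vertical axis; each point is 1 library and colours give the group. Hk2 is the only enzyme that passed the test, from 2.08 TPM in IC to 8.50 TPM with the 3–100 kDa proteins on average, while Gapdh is near 1500 TPM in every group (from 1499 to 1609 TPM).

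The enzymes moved together from library to library within a group. In IC, 14 of the 17 were highest in library 2 and 15 were lowest in library 3. Library 1 held the highest value for 16 enzymes in EV, 14 with the 3–100 kDa proteins and 15 with the total secretome, and library 3 the lowest for 13, 12 and 15. Their summed level ranged from 4602 to 6706 TPM within IC alone. Eno2, the neuronal enolase, was at 179, 77.8 and 19.6 TPM in the EV libraries. Hif1a was lowest in the library with the highest enzyme sum in 3 of the 4 groups, at 56.2, 29.8 and 64.3 TPM in IC, 30.3, 60.1 and 71.1 TPM in EV and 44.0, 74.97 and 59.7 TPM with the 3–100 kDa proteins. The total secretome did not show this, with Hif1a at 53.4, 50.9 and 51.4 TPM and the highest sum also in library 1. The 10 neuronal markers summed to 3797, 3584 and 3251 TPM with the 3–100 kDa proteins and to 3934, 3163 and 3143 TPM with the total secretome, in the same order as the enzyme sum, whereas in IC (4023, 3911 and 3872 TPM) and EV (3939, 3689 and 4052 TPM) the order was another. The sum of the 8 astrocyte markers followed the enzyme sum in IC (952, 1133 and 833 TPM) and was highest in library 2 in each treated group. In IC that order rested on Gfap, which was highest in library 2 there, and did not hold for the sum of the other astrocyte markers. The part of this pattern in the comparisons was not tested.

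**Figure D4:**
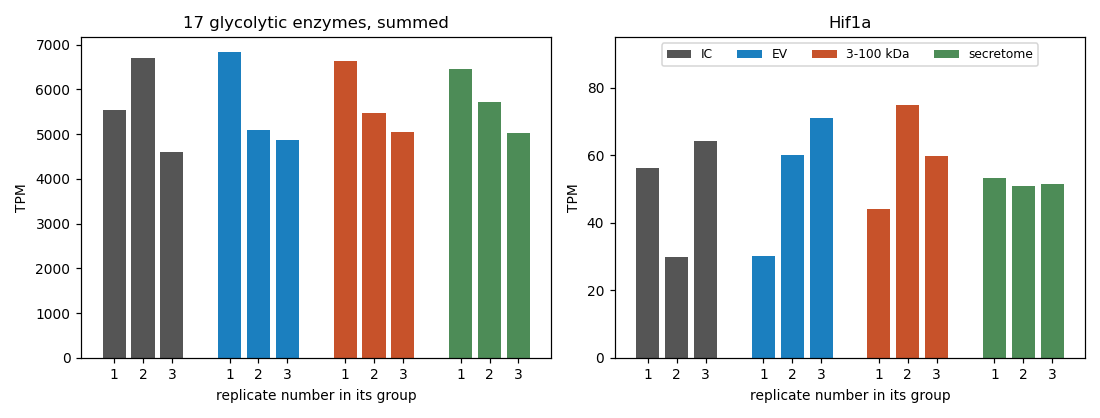
Summed TPM of the 17 glycolytic enzymes (left) and TPM of Hif1a (right) in each library, 1 bar per library, numbered as in the labels and coloured by group. Within IC the sum ranges from 4602 to 6706 TPM, and library 2, with the highest sum, has the lowest Hif1a (29.8 TPM).

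Pfkfb3 makes the enzyme that forms fructose-2,6-bisphosphate, the strongest activator of phosphofructokinase, and it had the lowest p of any member in the comparison of EV with IC. It was at 31.6, 21.1 and 24.8 TPM in IC, at 43.7, 59.9 and 53.0 TPM in EV, at 49.6, 83.0 and 68.7 TPM with the 3–100 kDa proteins and at 57.4, 72.1 and 57.9 TPM with the total secretome. No treated library overlapped with IC. Pfkfb3 rose by 1.36 (SE 0.22, adjusted p = 0.0230) with the 3–100 kDa proteins and by 1.27 (SE 0.17, adjusted p = 0.0137) with the total secretome. For EV the difference was 0.98 (SE 0.18), a mean ratio of 2.02, and it did not pass the adjustment over all genes (adjusted p = 0.192). The other flux regulator, Pdk1, the kinase that shuts pyruvate dehydrogenase, was at 25.6 ± 4.44 TPM in IC and differed by between -0.20 and -0.02, with no test passed.

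No transporter passed the test in any comparison with IC. Slc2a1 was at 10.8, 15.4 and 11.1 TPM in IC, 17.9, 18.4 and 15.4 TPM in EV, 17.9, 18.6 and 13.4 TPM with the 3–100 kDa proteins and 20.1, 19.1 and 15.7 TPM with the total secretome. The secretome libraries alone lay wholly above IC. The differences from IC were 0.45 (adjusted p = 0.9998), 0.43 (adjusted p = 0.313) and 0.55 (adjusted p = 0.181), in this order. Slc2a3 was at 45.2, 35.2 and 38.5 TPM in IC against 53.3, 67.7 and 46.3 TPM with the 3–100 kDa proteins, a difference of 0.50 (SE 0.15, adjusted p = 0.138) with no overlap. The lactate transporter Slc16a1 differed from IC by between 0.30 and 0.45.

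Ppp1r3c encodes the targeting subunit that brings protein phosphatase 1 to glycogen and thereby favours its synthesis. It was at 17.1, 15.8 and 12.8 TPM in IC, 10.2, 12.8 and 7.75 TPM in EV, 4.98, 7.18 and 5.29 TPM with the 3–100 kDa proteins and 14.4, 12.1 and 13.3 TPM with the total secretome. The 3–100 kDa libraries were the lowest, and the secretome libraries overlapped with IC. Ppp1r3c fell by 1.23 on the log2 scale (SE 0.18, adjusted p = 0.0142) with the 3–100 kDa proteins, while the difference was -0.55 (SE 0.20, adjusted p = 0.9998) for EV and -0.16 (SE 0.15, adjusted p = 0.658, 95% interval -0.50 to 0.18) for the total secretome. Gys1, muscle-type glycogen synthase, which brain also uses, and Pygb were below IC in the means of each treated group, with log2 differences between -0.55 and -0.13, none of which passed the test.

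Of the oxygen sensing genes, Hif1a was at 50.1 ± 18.1 TPM in IC, and its differences from IC were 0.08, 0.31 and 0.14 for EV, the 3–100 kDa proteins and the total secretome, with adjusted p of 0.9998, 0.703 and 0.871. The 95% intervals were wide, from -0.85 to 1.004 for EV. Egln3, the hydroxylase that is itself a HIF target, was at 12.5, 15.9 and 12.5 TPM in IC against 11.2, 17.7 and 17.9 TPM in EV. It was at 9.87, 13.4 and 13.6 TPM with the 3–100 kDa proteins and at 11.6, 12.95 and 14.6 TPM with the total secretome, so that every group overlapped with IC. Its differences lay between -0.11 and 0.15.

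The hypoxia targets split, with members that rose beside members that fell. Adm encodes adrenomedullin and had the largest difference of any member with the 3–100 kDa proteins. It was at 0.831, 0.675 and 0.2005 TPM in IC, 1.34, 1.66 and 1.36 TPM in EV, 9.48, 12.5 and 8.70 TPM with the 3–100 kDa proteins and 2.94, 4.01 and 3.97 TPM with the total secretome. The 4 groups did not overlap with each other. Adm rose by 2.87 (SE 0.23, adjusted p = 0.00143) with the 3–100 kDa proteins and by 1.60 (SE 0.26, adjusted p = 0.0267) with the total secretome. The ratios of mean TPM, free of the added 1, were 17.99 and 6.40, and for EV 2.55 (difference 0.67, adjusted p = 0.9998). Since Adm was under 1 TPM in every IC library, it was tested only because it was higher in the treated group. Without it, 7 of 35 members passed an FDR of 0.05 for the 3–100 kDa proteins and 4 of 35 for the total secretome. With a pseudocount of 0.1 the difference for the total secretome was 2.65 and its adjusted p was 0.0538.

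Ak4, a mitochondrial adenylate kinase, was at 8.84, 6.94 and 5.69 TPM in IC against 9.25, 10.1 and 8.82 TPM in EV, which overlapped. It was at 23.5, 24.3 and 16.5 TPM with the 3–100 kDa proteins and at 25.5, 26.9 and 18.6 TPM with the total secretome, all far above both other groups. Ak4 rose by 1.48 (SE 0.18, adjusted p = 0.00711) and by 1.62 (SE 0.18, adjusted p = 0.00745). The difference for EV was 0.36 (SE 0.19, adjusted p = 0.9998). P4ha1, a subunit of the hydroxylase that matures collagen, was at 19.9, 16.5 and 15.6 TPM in IC, 20.4, 19.9 and 18.6 TPM in EV, 27.2, 29.3 and 26.7 TPM with the 3–100 kDa proteins and 30.4, 27.4 and 17.8 TPM with the total secretome. It rose by 0.69 (SE 0.13, adjusted p = 0.0419) with the 3–100 kDa proteins, a call that lay at the threshold and was lost without the filter on low values (adjusted p = 0.0510), without rescaling (0.102) and without any 1 of the 6 libraries. For the total secretome the difference was 0.51 (adjusted p = 0.209).

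Ddit4, an inhibitor of mTORC1 that hypoxia and glucocorticoids induce, went the other way. It was at 70.1, 69.2 and 46.2 TPM in IC, 47.4, 41.2 and 33.6 TPM in EV, 25.1, 14.5 and 18.5 TPM with the 3–100 kDa proteins and 31.2, 20.3 and 22.9 TPM with the total secretome. The EV libraries overlapped with IC by 1 library, and both other groups lay wholly below. Ddit4 fell by 1.60 (SE 0.23, adjusted p = 0.0127) with the 3–100 kDa proteins and by 1.26 (SE 0.18, adjusted p = 0.0175) with the total secretome, and the EV difference was -0.59 (SE 0.19, adjusted p = 0.9998). Mxi1, a partner of MAX that opposes MYC, was at 47.0, 42.0 and 37.7 TPM in IC, 28.3, 36.0 and 30.6 TPM in EV, 22.5, 27.0 and 22.9 TPM with the 3–100 kDa proteins and 22.3, 27.8 and 25.8 TPM with the total secretome. Every treated library was below every IC library. Mxi1 fell by 0.75 (SE 0.13, adjusted p = 0.0258) with the 3–100 kDa proteins. The differences were -0.70 (SE 0.15, adjusted p = 0.0648) for the total secretome and -0.42 (SE 0.14, adjusted p = 0.9998) for EV. 

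Vegfa, the angiogenic growth factor, had 1 high library in IC (34.2, 13.4 and 13.4 TPM). It was at 22.8, 18.03 and 15.0 TPM in EV, 45.0, 32.6 and 23.1 TPM with the 3–100 kDa proteins and 42.1, 23.6 and 20.3 TPM with the total secretome, and each group overlapped with IC. Its difference from IC was 0.81 (SE 0.35, adjusted p = 0.295) with the 3–100 kDa proteins. The mitophagy receptors Bnip3 and Bnip3l differed from IC by between -0.27 and -0.02, and Ankrd37 by between -0.36 and 0.13. Over the 9 targets the median difference was -0.02 for EV, -0.24 for the 3–100 kDa proteins and 0.13 for the total secretome. The second of these was 0.20 without IC library 2 and also without IC library 3, and the third was -0.12 without secretome library 3.

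**Figure D5:**
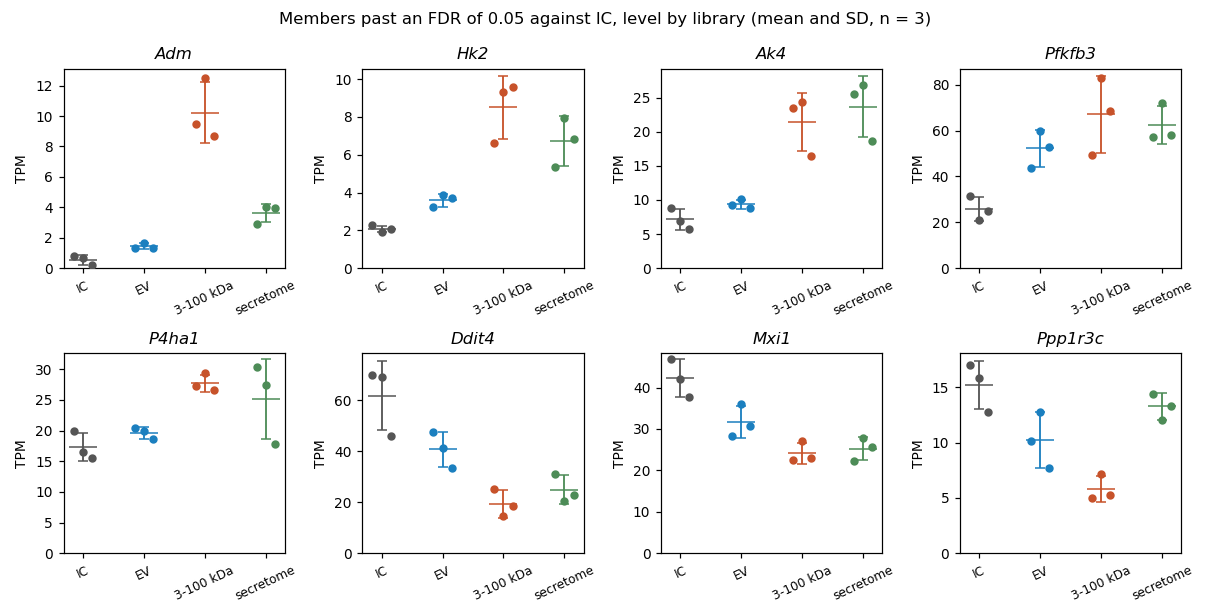
TPM of the 8 members that passed an FDR of 0.05 for the 3–100 kDa proteins against IC, by group; points are libraries, and horizontal lines with bars give the mean and SD (n = 3). Adm, Hk2, Ak4, Pfkfb3 and P4ha1 are higher and Ddit4, Mxi1 and Ppp1r3c lower with the 3–100 kDa proteins than in IC, and for Ppp1r3c the secretome mean (13.3 TPM) lies near that of IC (15.2 TPM).

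The treatments were also compared with each other, at the different doses at which they were given. The same-numbered libraries of these groups deviated together, so the value with the replicate number as a block is given wherever it changed whether a member met a criterion. Between EV and the 3–100 kDa proteins, 2 of 36 members passed an FDR of 0.05, against 0.534% of all 12734 genes tested. Adm was lower in EV by 2.20 (SE 0.19, adjusted p = 0.0126) and Ak4 by 1.11 (SE 0.16, adjusted p = 0.0426). With the block there were 5, with the addition of Hk2 (-1.06, adjusted p = 0.128 without and 0.0375 with the block), Ddit4 (1.03, 0.180 and 0.0323) and Vegfa (-0.81, 0.321 and 0.0199). The share of all genes that passed with the block is not reported here, so the higher count cannot be read as particular to the members. By the looser criterion there were 6, against 5.14% of all genes, these 5 and Ppp1r3c (0.69, adjusted p = 0.353). Eno2 (-0.64) met it only with the block, with an unadjusted limma p of 0.449 without and 0.0296 with the block (adjusted p = 0.187 with the block). In 11 members the libraries did not overlap, against 14.2% of all genes. The number at an FDR of 0.05 was 0 without EV library 2 or 3 or 3–100 kDa library 2 or 3, and 1 (Adm) without library 1 of either group.

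Between EV and the total secretome 1 of 36 members passed, against 0.188% of all 12758 genes tested. Ak4 was lower in EV by 1.25 (SE 0.16, adjusted p = 0.0369, and 0.0701 with the block, which left no member). The looser criterion was met by 4, against 4.00% of all genes, with Adm (-0.93), Hk2 (-0.75) and Ddit4 (0.69) besides Ak4. In 7 members the libraries did not overlap, against 11.8% of all genes. The call on Ak4 was also lost without EV library 2 or 3 and without any 1 of the 3 secretome libraries. Between the total secretome and the 3–100 kDa proteins no member passed an FDR of 0.05 in limma, against 0.0157% of all 12713 genes tested, and 2 of 36 members and 335 of all genes had an unadjusted p under 0.05. These 2 also met the looser criterion, against 1.24% of all genes. Ppp1r3c was 1.08 higher (SE 0.17) and Adm 1.27 lower (SE 0.20) with the total secretome, each with an adjusted p of 0.401, and their libraries did not overlap, which was so for 5.01% of all genes.

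Further genes of the pathway, from lists written by hand from general knowledge, were read beside the members. Of 20 additional hypoxia targets found, 16 were tested against IC with the 3–100 kDa proteins, and 2 rose (12.5%, against 2.82% of all genes). Ndrg1, a stress-responsive gene, was at 141, 107 and 116 TPM in IC, 124, 103 and 119 TPM in EV, 253, 232 and 198 TPM with the 3–100 kDa proteins and 254, 211 and 197 TPM with the total secretome. It rose by 0.93 (SE 0.13, adjusted p = 0.0115) and 0.88 (SE 0.12, adjusted p = 0.0165) in the latter groups, while the EV libraries overlapped with IC. Igfbp3 rose by 1.12 (SE 0.22, adjusted p = 0.0445) with the 3–100 kDa proteins, and Stc2 met the looser criterion alone (0.81, adjusted p = 0.282).

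In EV none of 16 additional targets tested passed an FDR of 0.05 in limma, and 2 had an unadjusted p under 0.05, as did 360 of all 12749 genes. Angptl4, an inhibitor of lipoprotein lipase, was at 3.24, 4.67 and 2.42 TPM in IC against 7.85, 16.2 and 10.5 TPM in EV, a difference of 1.46 (SE 0.29, adjusted p = 0.259) with no overlap. Of 9 HIF pathway components tested, none passed at an FDR of 0.05 against IC in the limma fits without a block. Cited2, which competes with HIF-1α for its coactivators, was at 50.1, 74.0 and 55.6 TPM in IC against 85.1, 115 and 120 TPM with the total secretome, a difference of 0.85 (SE 0.23, adjusted p = 0.124, and 0.0420 with the block). With the 3–100 kDa proteins its difference was 0.81 (SE 0.23, adjusted p = 0.122).

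In the pentose phosphate pathway, 1 of 6 genes rose with the 3–100 kDa proteins, against 2.82% of all genes. Rpia, ribose-5-phosphate isomerase, was at 15.4, 18.04 and 14.4 TPM in IC against 26.5, 27.7 and 25.7 TPM there, a rise of 0.74 (SE 0.14, adjusted p = 0.0411). Among 9 genes of pyruvate entry into mitochondria, Pdk2 (-0.79, adjusted p = 0.127) and Pdp1 (0.66, adjusted p = 0.122), which close and open pyruvate dehydrogenase, met the looser criterion with the 3–100 kDa proteins, against 10.0% of all genes. Of the other glycogen genes (15 or 16 tested) and the other isozymes of glycolysis (3 or 4 tested), none met either criterion in any comparison with IC.

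Some markers of other cell types also differed between the groups. Gfap was higher than in IC by 1.58 (adjusted p = 0.9998) in EV and by 1.40 (adjusted p = 0.269, and 0.0256 with the block) in the total secretome. With the 3–100 kDa proteins it was higher by 1.05 (adjusted p = 0.356). The other astrocyte markers met neither criterion against IC. Their differences lay between -0.25 and 0.12 in EV, -0.13 and 0.35 with the 3–100 kDa proteins and -0.03 and 0.40 with the total secretome. The sum of the 8 astrocyte markers, Gfap included, was 833–1133 TPM in IC, 1131–1517 TPM in EV, 958–1425 TPM with the 3–100 kDa proteins and 1129–1572 TPM with the total secretome. Pdgfrb, a marker of mural cells and fibroblasts, fell by 1.42 (adjusted p = 0.0234) with the 3–100 kDa proteins, from 3.21 ± 0.781 to 0.551 ± 0.272 TPM, and was tested there only through IC, while the 7 markers of that list summed to 2.99–4.28 TPM in IC and 3.30–4.13 TPM there. Its differences for EV (-0.90, adjusted p = 0.743) and the total secretome (-0.92, adjusted p = 0.0912) met the looser criterion. So did, with the 3–100 kDa proteins, Col1a1 of the same list in the other direction (1.10, adjusted p = 0.0567), which was under 1 TPM in every IC library and so was tested only through the treated group, and Olig1 (-0.59, adjusted p = 0.199) and Sox10 (-0.79, adjusted p = 0.226) of the oligodendrocyte lineage. Of the 7 markers of that lineage tested there, 4 were lower and 3 higher than in IC. All 8 markers of the lineage summed to 183–236 TPM in IC and 124–189 TPM with the 3–100 kDa proteins. Olig1 was also lower with the 3–100 kDa proteins (70.0, 50.5 and 47.4 TPM) than in every library of EV (92.8, 91.5 and 74.8 TPM) and of the total secretome (89.1, 112 and 104 TPM). The differences were 0.60 (adjusted p = 0.271, and 0.0412 with the block) for EV and 0.86 (adjusted p = 0.859) for the total secretome, each minus the 3–100 kDa proteins, and both met the looser criterion. The part of these shifts in the differences of the members was not tested. None of the 10 neuronal markers met either criterion against IC.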

How the data were processed

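The methods state that reads were trimmed, that Salmon quantified them on rat transcripts (Rnor_6.0) with a genome decoy and that tximport gave the authors gene-level values. The deposited files hold 32285 rows of gene names for each of 12 libraries and do not name the unit. The deposited values were taken as TPM, since each library sums to 1000000. TPM keeps no read depth, and a listed 0 can be a failed estimate. The labels and the methods disagree on the library kit, the sequencer and the age of the pups.

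Rows of 1 name were summed (2 rows for Pkm). In each comparison TPM was divided by median-of-ratios factors (0.909 to 1.08 over all 12 libraries), genes that reached 1 TPM in 3 or more libraries were tested, and log2(TPM + 1) was fitted for the 6 libraries of each comparison with limma 3.58.1 (eBayes, trend) under R 4.3.3. P-values were adjusted over all genes tested. Intervals are 95% intervals of the fit. On data simulated for the comparison of the 3–100 kDa proteins with IC, the test was checked and recovered 46.5% of genes changed by 1 on the log2 scale (99 tested) and 91.0% of those changed by 2 (100 tested), with 10 false calls among 147.

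The members and lists were chosen with earlier results of these data known. Per-library values were given for members that met either criterion in any comparison and for the member of each role with the lowest p for EV against IC. The level of the most abundant member of each role was also given, and up to 3 genes were named from each further list. Pgam1, Ldha, Ldhb, Hk1, Eno2 and Slc2a3 were described after their values were seen. Ero1a is named Ero1l in the files, and Nos2, Pdha1, Pcx, Pgd and Pecam1 were not found. Some genes of the further lists are not reported here and were left out of the counts of those lists. Start-site windows came from RefSeq (GRCr8), matched by symbol.

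To see whether replicate numbers pair libraries, the deviation of each library from its group mean was correlated, across genes, with that of the library of equal number in the other group. For numbers 1 to 3 the correlation was -0.08, -0.18 and 0.54 (EV, IC) and -0.01, -0.25 and 0.25 (3–100 kDa proteins, IC), and these groups were not read as paired. It was 0.25, 0.16 and 0.16 (total secretome, IC), 0.59, 0.29 and 0.30 (EV, 3–100 kDa proteins), 0.26, 0.19 and 0.21 (EV, total secretome) and 0.38, 0.22 and 0.24 (total secretome, 3–100 kDa proteins). These were read as paired, from the data and not from the labels. The alternatives were a pseudocount of 0.1, no filter, no rescaling, 1 fit of all 12 libraries, the largest row of a name, a replicate block and leaving out each library.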

Additional observations from a re-analysis of the deposited data

How the results depend on the processing

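Of the 34 differences of 11 members recomputed under the alternatives, none changed direction, and the direction of the other members under the alternatives was not compared. With a replicate block, the number of members past an FDR of 0.05 was 4 in place of 8 for the 3–100 kDa proteins against IC (Adm, Ak4, Ddit4 and Hk2), where the numbers did not pair the libraries and Igfbp3, Ndrg1, Rpia and Pdgfrb also lost their calls, 5 in place of 2 for EV against the 3–100 kDa proteins and 0 in place of 1 for EV against the total secretome, and it changed no other count by more than 1.5 times. Without the filter on low values, and likewise on deposited TPM with no rescaling, the number was 1 in place of 2 for EV against the 3–100 kDa proteins and 0 in place of 1 for EV against the total secretome. Leaving out 1 library at a time, it ranged from 1 to 8 for the 3–100 kDa proteins against IC, from 0 to 8 for the total secretome against IC, from 0 to 1 for EV against the 3–100 kDa proteins and from 0 to 1 for EV against the total secretome, and the number by the looser criterion for EV against IC ranged from 1 to 5. The median difference of the hypoxia targets from IC ranged from -0.26 to 0.20 for the 3–100 kDa proteins and from -0.12 to 0.25 for the total secretome. Fewer libraries were fitted in each case, and otherwise the cause was not tested. The shares of all genes that passed under the alternatives are not reported here, so these counts have no background beside them. Of the fits of single members that left out a library, 143 kept their side of the threshold, 51 lost a call and 1 gained one. The 143 include differences that had not passed in the full fit and so had no call to lose. Of 6 such fits each, Ak4 kept its call against IC in 5 for the 3–100 kDa proteins and in 5 for the total secretome. Mxi1 kept its call in 1 of 6 and P4ha1 in 0 of 6 for the 3–100 kDa proteins. The pseudocount of 0.1, the single fit of all 12 libraries and the largest row of a name changed no count by more than 1.5 times, although the single fit added Pgam1 and Pygb for the 3–100 kDa proteins against IC, Mxi1 for the total secretome against IC (adjusted p = 0.0132) and Hk2 for EV against the 3–100 kDa proteins (adjusted p = 0.0276).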
